A study of Homo sapiens with 6 samples.

Results

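The circular RNAs (circRNAs) described here are rings whose back-spliced ends lie more than 50 kb apart in the genome. They were chosen by position alone, as entries of the deposited circRNA table with end minus start above 50000, leaving out rings of numbered zinc finger (ZNF) genes and of hosts listed as lncRNA genes. This gave 2960 rings from 1139 host genes, 9.38% of the 31559 rings in the table. A further 38 rings of that span with a ZNF host and 21 with a listed lncRNA host were left out. The exclusion went by symbol, so LINC00340, a lncRNA gene by its name but not listed, was kept with 12 rings and 39 reads. The cells were forebrain neurons made from H9, an established human embryonic stem cell line, collected at day 26, of genotype WT and untreated. The labels also call the same cells neuron progenitors. RNA of whole cells, of the cytoplasm and of the nucleus was sequenced after removal of ribosomal RNA, with 2 replicates for each of the 3 preparations and 6 libraries in all. No other genotype, line or treatment enters any comparison, and whether replicates were separate differentiations is not given in the sources used here, so every p-value reflects the spread among these libraries alone, which may be technical.

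A circRNA forms when the spliceosome joins the end of a downstream exon back to the start of an upstream exon instead of to the next exon. The product has no free ends, which protects it from exonucleases, and it is recognised in sequencing by reads that cross the back-spliced junction. Most circRNAs of neurons consist of a few exons of protein-coding genes, with the introns between them removed, and leave the nucleus. Where the introns are removed, a ring of large genomic span can be short.

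An example of a large span with few annotated exon bases is the ring of DENND1A, which encodes an exchange factor for the small GTPase Rab35 in endocytosis. Its ends lie 121.3 kb apart at chr9:123757703-123879021 (hg38, minus strand), and exons 2 to 5 of the annotated transcript between them add up to 285 bases. The ring as reconstructed from annotation, in DNA letters from the GENCODE v29 transcript and with the first base of each exon in capitals, is printed to show how little of the span its annotated exons take.
DENND1A ring: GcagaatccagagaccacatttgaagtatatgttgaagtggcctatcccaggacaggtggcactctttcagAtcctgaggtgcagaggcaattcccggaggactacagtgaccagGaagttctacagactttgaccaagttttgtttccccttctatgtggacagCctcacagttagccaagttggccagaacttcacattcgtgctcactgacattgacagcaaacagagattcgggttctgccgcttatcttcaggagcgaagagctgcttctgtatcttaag
The 4 exons measure 71, 44, 50 and 120 bases. The ring was seen with 11 and 14 reads in the cytoplasm, 7 and 1 in the nucleus and 11 and 14 in whole cells. Another annotated transcript with both ends holds 3 exons, and back-splice reads do not show which exons a ring keeps.

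The junctions below define the rings on which the later comparisons turn. Each is 30 bases long, the last 15 of the ring's final exon followed by the first 15 of its first exon, and the 10 capitals are the 5 bases on either side of the back-splice. They are read 5′ to 3′ on the strand of the gene from GENCODE v29 transcripts (hg38).
RERE 73.5 kb, exons 5 to 8, chr1:8541214-8614686: taaccctgagACAAGGTCCAcaactcccag
RERE 119.6 kb, exons 5 to 11, chr1:8495063-8614686: aatgcactgaACACAGTCCAcaactcccag
RERE 62.5 kb, exons 6 to 11, chr1:8495063-8557523: aatgcactgaACACAAGTAAgagggaccat
ATRNL1 51.1 kb, exons 2 to 8, chr10:115120185-115171292: aggaataccaTATCTGTTAAcagaaccttc
ATRNL1 95.7 kb, exons 2 to 9, chr10:115120185-115215880: taacactaagACTTGGTTAAcagaaccttc
MBOAT2 50 kb, exons 2 to 4, chr2:8908621-8958642: tgctgattttTCAGGGTCAActttgtagtg
MAP2K4 58.5 kb, exons 3 to 8, chr17:12054889-12113360: aggccatacaTGGCAGTAAAcgcaaagcac
MSANTD3-TMEFF1 51.4 kb, exons 2 to 7, chr9:100498765-100550160: gaccagatgtGAAAGAATTAaatgtgaggg
KCNH8 66.5 kb, exons 6 to 11, chr3:19390481-19456982: ggtcatgagaGTGATATATTattttaaatt
SMARCC1 68.2 kb, exons 16 to 26, chr3:47610066-47678311: atccaccccaGCCAGATACTtggcatatcg
PCCA 147.8 kb, exons 13 to 21, chr13:100301460-100449305: tttcttggtaCAGTGGTTGAgcatcctgtc
STK39 66.3 kb, exons 9 to 14, chr2:168063500-168129758: cgttttgagaTTAAGGCCCAcagcagcaga
The 73.5 and 119.6 kb rings of RERE read the same letters after the junction because both begin at exon 5, and the 119.6 and 62.5 kb rings read the same letters before it because both finish at exon 11. The rings of ATRNL1 share their start at exon 2.

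Back-splice reads of all rings numbered 46002 and 52244 in the cytoplasm, 13338 and 15395 in the nucleus and 26114 and 33318 in whole cells. Levels are given in the authors' FPB, in which 1 read was worth 0.0499 and 0.0480 in the cytoplasmic, 0.0824 and 0.0678 in the nuclear and 0.123 and 0.0985 in the whole-cell libraries. A back-splice is a single junction, so FPB does not scale with ring length. The summed neuron markers (TUBB3, DCX, STMN2, GAP43, MAP2, ELAVL3 and ELAVL4) reached 515 to 580 FPKM in whole cells, and all 8 forebrain progenitor markers were also at a mean of 1 FPKM or more. None of the 6 glial and 4 microglial markers reached that mean, MOG was at 0 in all libraries, and of 4 pluripotency genes POU5F1 and NANOG were at or near 0 in whole cells. LIN28A, at 4.68 to 5.84 FPKM, and DPPA4, at 1.36 to 1.64 FPKM, were detected there. Of 4 mesenchyme markers 3 reached a mean of 1 FPKM, with COL3A1 at 22.2 to 27.4 FPKM in whole cells. The nuclear lncRNA MALAT1 measured 31.5 and 31.6 FPKM in cytoplasmic libraries, 57.5 and 70.1 in nuclear and 568 and 712 in whole-cell ones. The whole-cell level of MALAT1 thus lay far above both fractions, and what separates the whole-cell libraries from the fractions beyond the labels was not tested.

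The rings differed from shorter ones in build, though they were chosen by span. Span is thus set by the rule, and exon number, spliced length and internal introns may follow from it in part. Their median span was 75338 bases, and for the 2743 whose ends both matched 1 annotated transcript the median was 8 exons and 1140 spliced bases, or 1.34% of the span. Rings of 1 to 50 kb had a median of 4 exons and 570 spliced bases. The longest single intron inside took a median of 41.8% of the span. Of the 2743 rings, 846 (30.8%) began at the second exon of the transcript used, against 20.6% of rings of 1 to 50 kb. Among rings with a mean of at least 0.37 FPB this gap was absent, at 34.8% of 46 long rings and 36.5% of 674 rings of 1 to 50 kb. The introns before the first exon of the ring had a median of 18472 bases in long rings and 5990.5 bases in rings of 1 to 50 kb. At a mean of at least 0.37 FPB these medians were 22834 and 14523 bases. Adenine made up a median of 30.2% of the spliced sequence, against 29.9% at 1 to 50 kb and 27.7% under 1 kb. At a mean of at least 0.37 FPB it was 30.1% in long rings, 30.5% at 1 to 50 kb and 28.1% under 1 kb. An end was shared with some other ring in 90.2% of long rings and 74.5% of rings of 1 to 50 kb. For 860 of the 2743 rings the annotated choice with fewest exons differed from the one used, and it gave a median of 7 exons and 1075 bases.

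Most of these rings were rare. Of 2960, 1743 (58.9%) rested on 1 read in the 6 libraries together and 53 had reads in every library. NRXN3, a presynaptic neurexin, gave the longest span at 1052818 bases with 1 read, in nucleus replicate 2. CNTNAP2, a neurexin-like adhesion protein of axons, gave one of 787987 bases with 1 read, in total replicate 2. ATRNL1, an attractin-like membrane protein, gave a ring of 727807 bases with 1 read in cytoplasm replicate 1 and 4 and 2 reads in whole cells.

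To ask where rings of large span are found in the cell, their reads were first summed. They made up 2427 and 2630 reads in the cytoplasm, 689 and 777 in the nucleus and 1596 and 1978 in whole cells. As a share of all back-splice reads this was 5.28% (exact binomial 95% interval 5.07 to 5.48) and 5.03% in the cytoplasm, 5.17% and 5.05% in the nucleus and 6.11% and 5.94% in whole cells. The cytoplasmic and nuclear shares overlapped, at 5.15% ± 0.171 (SD, n = 2) and 5.11% ± 0.0839. The log2 ratio of cytoplasm to nucleus for long rings minus that for all other rings was 0.01 ± 0.06 (SD) with an exact two-sided permutation p of 1. Both whole-cell libraries lay above the 4 others, with a mean share of 6.02% ± 0.124, a log2 difference from the other rings of -0.24 for cytoplasm over total and -0.25 for nucleus over total (exact two-sided permutation p = 0.333 for each, the smallest that 2 against 2 libraries allow).

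Summed FPB of the long rings was 124 ± 3.68 (SD, n = 2) in the cytoplasm, 54.7 ± 2.87 in the nucleus and 196 ± 1.20 in whole cells. The cytoplasmic level was 2.26 times the nuclear level, a log2 ratio of 1.18, with no overlap of libraries (exact two-sided permutation p = 0.333, the smallest possible). This ratio depends on how the libraries are scaled: with the libraries brought to the same median of protein-coding mRNAs it was -0.02. In these bulk fractions, fewer cells carrying a ring and fewer rings per cell cannot be told apart, nor can RNA content per compartment be read from FPB.

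The larger share in whole cells was not particular to rings above 50 kb. Rings of 25 to 50 kb took 11.2% and 10.7% of reads in the cytoplasm, 10.1% and 10.4% in the nucleus and 11.99% and 12.1% in whole cells. Rings of 50 to 100 kb took 3.94% ± 0.138 of reads in the cytoplasm, 3.84% ± 0.0196 in the nucleus and 4.31% ± 0.280 in whole cells. Rings of 100 to 200 kb took 0.913% ± 0.0461, 0.956% ± 0.0476 and 1.22% ± 0.0568. Above 200 kb the shares were 0.299% ± 0.0135, 0.311% ± 0.0167 and 0.488% ± 0.0996. The log2 ratio of cytoplasm to total, relative to all other reads, was -0.16 at 25 to 50 kb, -0.13 at 50 to 100 kb, -0.43 at 100 to 200 kb and -0.70 above 200 kb. It was thus no larger in size at 50 to 100 kb than in the class below, and larger in the classes above 100 kb. For rings under 1 kb it was 0.07. In each of the classes above 25 kb both whole-cell libraries lay above both cytoplasmic ones. The shares of rings under 1 kb ran differently, with 14.0% in the cytoplasm, 16.9% in the nucleus and 13.4% in whole cells.

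**Figure D1:**
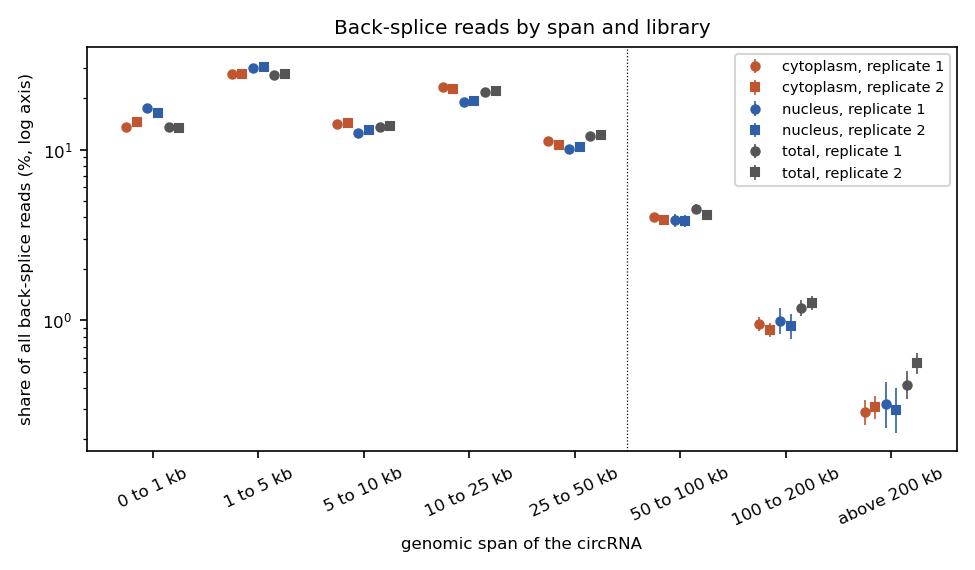
Share of all back-splice reads (percent, log axis) by genomic span of the ring in each of the 6 libraries, for hosts that meet the same rule. Points are libraries, circles replicate 1 and squares replicate 2, bars are exact binomial 95% intervals, and the dotted line marks 50 kb. Above 200 kb the whole-cell libraries sit at 0.417% and 0.558% against 0.289% to 0.322% in the fractions.

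Of the 2960 rings, 46 from 40 hosts had a mean of at least 0.37 FPB and could be tested singly, and they held 2861 of the 10097 reads. All 46 shared an end with some other ring, and their median build was 6 exons and 703 spliced bases. Levels were compared as log2(FPB + 0.123) with limma over all 913 rings that passed the same filter, with Benjamini-Hochberg adjustment at 0.05. Rings passing only through the fraction in which they are high had to differ, so counts over the 46 are set beside those over all tested rings.

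Between cytoplasm and nucleus, 12 of the 46 rings were higher in the cytoplasm (26.1%), 0 were lower and 34 were not called. Over all tested rings 30.9% were called higher and 0.329% lower. The median log2 difference was 0.98 for the long rings, 1.12 for rings of 1 to 50 kb and 0.94 for rings under 1 kb, and 43 of the 46 differences were positive. Both cytoplasmic libraries lay above both nuclear ones for 32 rings, against 74.5% of all tested rings, and below them for 0, against 2.41%. At an unadjusted p below 0.05, limma gave 22 higher and 0 lower. The quasi-likelihood test of edgeR on reads, with mapped bases as library size, called 13 higher and 0 lower, against 30.4% and 0.219% of all tested rings, and 12 of the 13 were limma's. The 12 calls became 0 without cytoplasm replicate 1 and 0 without cytoplasm replicate 2, with 13 and 12 rings still higher at an unadjusted p below 0.05. They also became 0 with libraries scaled to the mRNA median, where 0.0% of all tested rings were called higher and 0.11% lower, and 1 long ring was higher and 1 lower at an unadjusted p below 0.05. The median of the long rings was then 0.16, against 0.13 over all tested rings, and the 12 rings kept a positive difference.

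**Figure D2:**
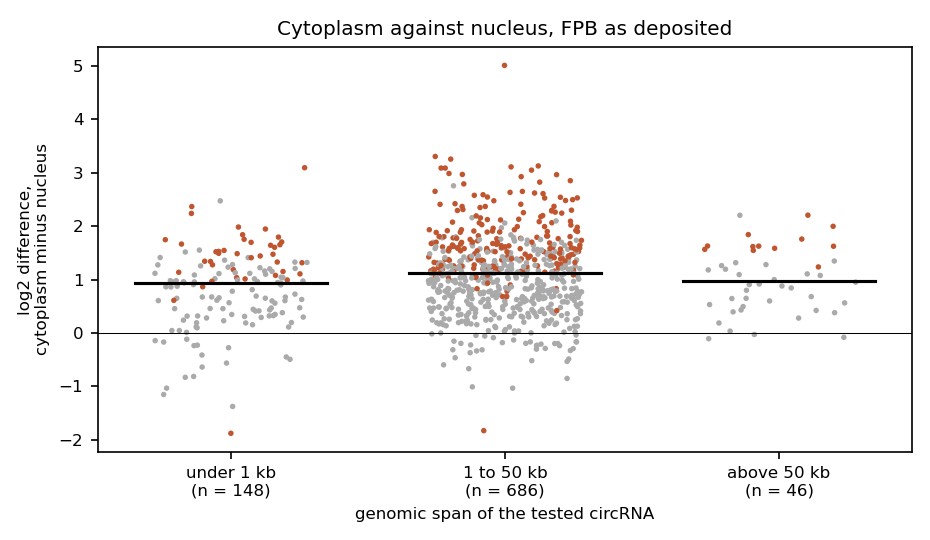
Log2 difference between cytoplasm and nucleus of FPB as deposited (vertical axis) for each tested ring, by span class. Coloured points passed limma's test at an adjusted p below 0.05 in either direction, grey points did not, black lines are medians (0.94, 1.12 and 0.98) and sideways scatter carries no meaning.

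Genes of chromatin and transcription hosted the most abundant long ring among those kept by the rule. A 68.6 kb ring of the lncRNA gene RMST, left out for its host, was more abundant, at a mean of 45.9 FPB against 3.23. RERE encodes a nuclear co-repressor of the atrophin family, and its 73.5 kb ring measured 2.54 and 3.50 FPB in the cytoplasm, 0.741 and 1.15 in the nucleus and 6.53 and 4.93 in whole cells. Both cytoplasmic values lay above both nuclear ones and below both whole-cell ones, and the ring ranked 46th by mean level among the 913. Its cytoplasmic level was 3.14 times the nuclear one (95% counting interval 2.04 to 4.99), a log2 difference of 1.57 ± 0.30 (SE, limma, adjusted p = 0.00355). The 119.6 kb ring of RERE was also called, at 1.75 and 2.40 FPB in the cytoplasm, 0.494 and 0.678 in the nucleus and 2.46 and 2.76 in whole cells (log2 difference 1.63 ± 0.34, adjusted p = 0.00477). GLI3, a zinc finger transcription factor of hedgehog signalling, gave a 75.1 kb ring of 2 exons in which a single intron took 99.5% of the span. It had 21 and 12 reads in the cytoplasm, 3 and 2 in the nucleus and 3 and 4 in whole cells. Its cytoplasmic libraries were the highest of the 6, and its log2 difference between cytoplasm and nucleus was 1.55 (limma, adjusted p = 0.0440).

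Other rings of this group were not called. SMARCC1, a core subunit of BAF chromatin remodelling complexes, had 6 and 9 reads in the cytoplasm, 6 and 4 in the nucleus and 6 and 6 in whole cells. Its levels overlapped between cytoplasm and nucleus, and the log2 difference was -0.03 ± 0.50. ZEB1, a transcription factor of the epithelial to mesenchymal transition, had 13 and 21 reads in the cytoplasm and 4 and 3 in the nucleus, with a log2 difference of 1.28 that was not called (adjusted p = 0.0623). Of 8 tested rings on the chromatin and transcription list, 3 were called higher, against 30.9% of all tested rings. The host lists used here do not hold every gene of a role, and 17 of the 46 tested long rings had hosts on no list.

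Hosts with roles in neuronal adhesion, synapses and axons gave 342 long rings, of which 7 were tested and 2 called higher, against 30.9% of all tested rings. The 51.1 kb ring of ATRNL1 measured 2.19 and 2.93 FPB in the cytoplasm, 0.824 and 1.22 in the nucleus and 5.05 and 3.45 in whole cells. The 3 preparations did not overlap, and the log2 difference between cytoplasm and nucleus was 1.24 ± 0.32 (limma, adjusted p = 0.0137). MSANTD3-TMEFF1, a readthrough gene that includes exons of the membrane protein gene TMEFF1, gave a 51.4 kb ring at 0.898 and 0.816 FPB in the cytoplasm, 0.165 and 0.136 in the nucleus and 2.22 and 1.48 in whole cells. The table does not separate the readthrough gene from TMEFF1 for this ring. Its log2 difference was 1.84 ± 0.43 (adjusted p = 0.00788).

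RIMS2, a scaffold of the presynaptic active zone, stood out in the comparison with whole cells. Its 80.3 kb ring on chromosome 8 had 15 and 26 reads in the cytoplasm, 7 and 6 in the nucleus and 23 and 32 in whole cells, or 0.748 and 1.25, 0.577 and 0.407, and 2.83 and 3.15 FPB. Whole cells were above both fractions, and the level was 3.0 times the cytoplasmic one (95% counting interval 1.97 to 4.61). It was the single long ring called lower in the cytoplasm than in whole cells (log2 difference -1.51 ± 0.38, limma, adjusted p = 0.0411), against 4.27% of all tested rings. That call was lost without either cytoplasmic or either whole-cell library.

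The same list differed in its share of reads. Its long rings took 0.626% of back-splice reads in both cytoplasmic libraries, 0.592% and 0.663% in the nucleus and 1.16% and 1.1% in whole cells. The rings of 1 to 50 kb from the same hosts took 3.42% ± 0.191, 3.27% ± 0.0407 and 4.83% ± 0.240. Long rings of all other hosts took 4.53% ± 0.171, 4.48% ± 0.134 and 4.90% ± 0.0806. The log2 ratio of cytoplasm to total relative to other reads was -0.85 for the neuronal list and -0.12 for the remaining long rings. The whole-cell libraries lay above all others on both counts. The summed neuron markers were also highest in whole cells, at 515 to 580 FPKM against 251 to 278 in the cytoplasm and 84.4 to 98.6 in the nucleus. Their nuclear level lay below the cytoplasmic one. The median FPKM of protein-coding mRNAs ran in the same order, lowest in both nuclear and highest in both whole-cell libraries. The shares of the rings overlapped between cytoplasm and nucleus. FPKM sums depend on library scaling, so the marker sums cannot be set against these shares. The sum of the 8 progenitor markers ran opposite to that of the neuron markers between cytoplasm and whole cells. It was 753 to 807 FPKM in the cytoplasm, 351 to 380 in the nucleus and 432 to 460 in whole cells. VIM alone gave 290 to 308 FPKM of the whole-cell sum, so the sum does not show how each marker ran. The part of either marker list in the result was not tested. A share of reads does not depend on how libraries are scaled.

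Kinases, phosphatases and ubiquitin enzymes hosted 240 long rings, 10 tested and 2 called higher, below the 30.9% of all tested rings. MAP2K4, a kinase that activates JNK, gave a 58.5 kb ring at 1.30 and 1.78 FPB in the cytoplasm, 0.412 and 0.407 in the nucleus and 1.48 and 1.58 in whole cells. The cytoplasmic and whole-cell values overlapped, and the log2 difference from the nucleus was 1.62 ± 0.38 (limma, adjusted p = 0.00788). SGMS1, a sphingomyelin synthase that the list also held, gave a ring of 156.8 kb with 5 exons and 16 and 22 reads in the cytoplasm, 2 and 4 in the nucleus and 10 and 8 in whole cells (log2 difference 1.63, adjusted p = 0.0188).

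The other abundant rings of this list were not called. PTK2, the focal adhesion kinase, had 19 and 26 reads in the cytoplasm, 5 and 9 in the nucleus and 9 and 17 in whole cells, with a log2 difference of 0.95 (adjusted p = 0.0817). RFWD2, the ubiquitin ligase gene named COP1 in GENCODE v29, had 24 and 21, 7 and 7, and 11 and 14 reads, with a difference of 0.92. DYRK1A, a kinase gene on chromosome 21, had 15 and 17, 5 and 8, and 13 and 12 reads, with a difference of 0.60. In all 3 the cytoplasmic libraries lay above the nuclear ones. FBXL17, an F-box protein of ubiquitin ligases, gave a ring of 162.4 kb that was not called (difference 1.18, adjusted p = 0.0717).

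STK39, a kinase that regulates ion cotransporters, was exceptional. Its 66.3 kb ring had 50 reads in cytoplasm replicate 1 and 0 in each of the other 5 libraries, and was not called (log2 difference 2.20 ± 1.76, adjusted p = 0.315). In cytoplasm replicate 2, 0 reads allow up to 0.144 FPB, against 2.49 in replicate 1. Of all 31559 rings, 6 had 20 or more reads confined to 1 library, and STK39 was the single long one among them. Without STK39 rings, the summed log2 ratio of cytoplasm to nucleus was 1.17 in place of 1.18.

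The remaining hosts held the called rings with the widest gaps and the tested long ring with the lowest difference. KCNH8, a voltage-gated potassium channel, gave a 66.5 kb ring with 17 and 12 reads in the cytoplasm, 0 and 2 in the nucleus and 8 and 7 in whole cells. Its cytoplasmic level was 9.53 times the nuclear one, with a counting interval of 2.41 to 82.5, and the log2 difference was the highest of the called long rings at 2.21 ± 0.57 (limma, adjusted p = 0.0137). EIF4G3, a scaffold of translation initiation on the list of RNA-binding and RNA-processing hosts, followed with 11 and 20 reads in the cytoplasm, 3 and 0 in the nucleus and 5 and 6 in whole cells (difference 2.0 ± 0.62, adjusted p = 0.0279). It was the 1 tested ring of 105 on that list. QKI, an RNA-binding protein known to promote circRNA formation, gave a ring of 79.8 kb below the filter, with 6 and 7 reads in the cytoplasm, 0 and 2 in the nucleus and 6 and 4 in whole cells.

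APLF, a factor of DNA end joining, and MBOAT2, a lysophospholipid acyltransferase, were also higher in the cytoplasm. The 55.1 kb ring of APLF had 26 and 35 reads in the cytoplasm, 3 and 9 in the nucleus and 10 and 11 in whole cells, and its cytoplasmic FPB of 1.30 and 1.68 exceeded the whole-cell 1.23 and 1.08. The log2 difference from the nucleus was 1.62 ± 0.43 (limma, adjusted p = 0.0162). The 50 kb ring of MBOAT2 had 23 and 34 reads in the cytoplasm, 5 and 5 in the nucleus and 12 and 24 in whole cells (difference 1.59 ± 0.40, adjusted p = 0.0124).

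At the other end, PCCA, a subunit of the mitochondrial propionyl-CoA carboxylase, had 9 and 1 reads in the cytoplasm, 2 and 4 in the nucleus and 10 and 4 in whole cells across its 147.8 kb ring. Its difference between cytoplasm and nucleus was -0.11 ± 0.73, and its replicates spread widely. The cytoskeletal list had 253 long rings, 3 tested and 0 called higher or lower in the cytoplasm than in the nucleus by limma, against 30.9% and 0.329% of all tested rings, and 2 of the 3 were higher at an unadjusted p below 0.05. DNAH14, an axonemal dynein heavy chain, had a difference of 1.19 (adjusted p = 0.0769) and CAMSAP2, a protein of microtubule minus ends, one of 0.68 (adjusted p = 0.300).

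**Figure D3:**
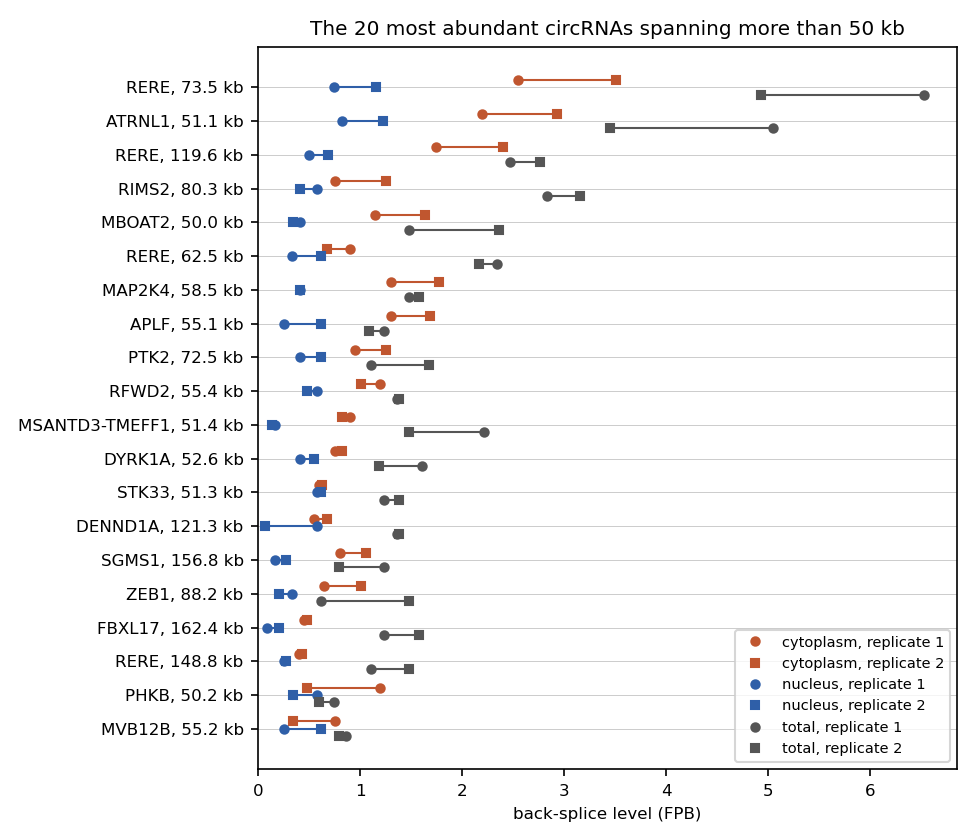
Back-splice level in FPB (horizontal axis) of the 20 most abundant long rings in every library, circles for replicate 1 and squares for replicate 2, joined within a preparation. Nuclear points sit left of the others for most rings, and the whole-cell points of RERE at 73.5 kb (6.53 and 4.93 FPB) lie furthest right.

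Between nucleus and whole cells, 30 of the 46 rings were lower in the nucleus and 0 higher, against 62.4% lower and 0.11% higher over all tested rings. Both nuclear libraries lay below both whole-cell ones for 43 rings, against 80.3% of all, and above them for 0, against 0.876%. At an unadjusted p below 0.05, limma gave 31 lower and 0 higher. The widest gap was that of MSANTD3-TMEFF1, a log2 difference of -2.83, followed by AGTPBP1, a tubulin deglutamylase, at -2.62. Rings not called here included that of PHKB, a regulatory subunit of phosphorylase kinase (-0.46). The 30 calls became 15 without total replicate 1 and 18 without total replicate 2, and 0 after scaling to the mRNA median, where 7 were lower at an unadjusted p below 0.05. Cytoplasm and whole cells were closer, with 0 rings called higher by limma (0.11% of all tested rings) and 0 higher and 9 lower at an unadjusted p below 0.05. Both cytoplasmic libraries lay above both whole-cell ones for 3 rings, against 9.09% of all, and both cytoplasmic libraries below both whole-cell ones for 25 rings, against 44.6% of all.

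Exon number varied with the difference between cytoplasm and nucleus inside the tested long rings. The 13 rings of up to 4 exons had a median log2 difference of 1.26, with 4 called higher. The 24 rings of 5 to 8 exons had a median of 1.01, with 8 called, and the 9 rings of 9 or more exons one of 0.40, with 0 called by limma and 1 higher at an unadjusted p below 0.05. Over all tested rings 30.9% were called higher, so the first 2 groups lay near that share. Over the 46 rings the rank correlation of exon number with the difference was -0.39, and -0.40 without STK39. Over all 894 tested rings with a reconstruction it was 0.17. Spliced length gave -0.36, genomic span -0.07 and adenine content 0.12 in the long rings. These are descriptions over rings that share the same 6 libraries, and rings of more exons also had lower levels, at a median mean of 0.467 FPB against 0.670 for rings of up to 4 exons.

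Summed reads of all 2743 reconstructed long rings, tested or not, were also grouped by exon number. Long rings of up to 4 exons took 1.51% ± 0.0519 of back-splice reads in the cytoplasm, 1.33% ± 0.10 in the nucleus and 1.60% ± 0.0347 in whole cells. Rings of 13 or more exons took 0.561% ± 0.00868, 0.775% ± 0.153 and 1.05% ± 0.0229. Both nuclear libraries, at 0.667% and 0.883%, lay above both cytoplasmic ones in that last group, and both whole-cell ones above those. The log2 ratio of cytoplasm to nucleus relative to other reads was 0.18 for rings of up to 4 exons and -0.46 for 13 or more (exact two-sided permutation p = 0.333 for each, the smallest possible). Rings of 1 to 50 kb with 13 or more exons gave -0.52, at 0.677%, 0.969% and 0.928%.

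**Figure D4:**
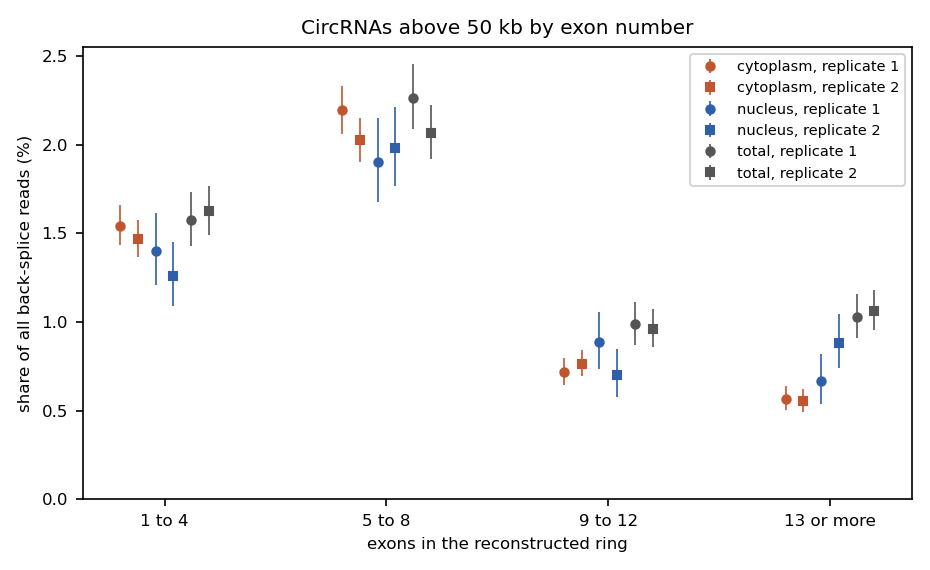
Share of all back-splice reads (percent) in each library for long rings grouped by the number of exons in the reconstructed ring. Points are libraries with exact binomial 95% intervals, and for 13 or more exons the cytoplasm (0.567% and 0.555%) lies below the nucleus (0.667% and 0.883%) and whole cells (1.03% and 1.06%).

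Several hosts gave families of nested rings. RERE had 24 rings, 15 of them long, and 591 of its 1133 reads (52.2%) came from the long ones. Tested rings starting at exon 5 finished at exon 8 (73.5 kb), exon 11 (119.6 kb) or exon 12 (148.8 kb), and the 62.5 kb ring ran from exon 6 to exon 11. The 62.5 kb ring had 18 and 14 reads in the cytoplasm, 4 and 9 in the nucleus and 19 and 22 in whole cells, and the 148.8 kb ring had 8 and 9, 3 and 4, and 9 and 15. Neither was called, at log2 differences of 0.64 and 0.49. A ring of 48.9 kb, just short of the limit, had 10 and 17 reads in the cytoplasm, 0 and 0 in the nucleus and 13 and 17 in whole cells, and was called higher in the cytoplasm. Whether rings of the same gene differ from each other was not tested.

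**Figure D5:**
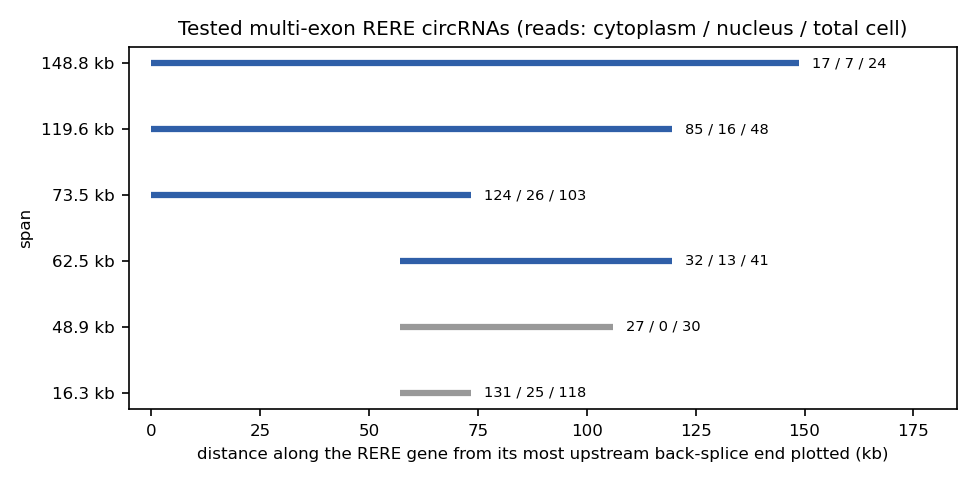
Tested multi-exon RERE rings drawn to scale by distance in kb along the gene from the most upstream back-splice end plotted, long rings in blue and shorter ones in grey. Numbers give reads summed over both replicates in cytoplasm, nucleus and whole cells. The 73.5, 119.6 and 148.8 kb rings begin at 1 position and the 62.5 kb ring ends with the 119.6 kb ring.

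ATRNL1 held the most long rings, 32 of its 43, with 470 reads. Besides the 51.1 kb ring, the 95.7 kb ring that adds exon 9 had 6 and 8 reads in the cytoplasm, 4 and 6 in the nucleus and 7 and 12 in whole cells. Its levels in cytoplasm and nucleus overlapped, with a log2 difference of -0.08 ± 0.46. Among further ATRNL1 rings from exon 2, all below the level filter, were those to exon 18 (195.6 kb) and exon 24 (349.1 kb), with 3 and 8 reads and 4 and 0 reads in the cytoplasm, 0 and 5 and 0 and 4 in the nucleus, and 3 and 9 and 5 and 9 in whole cells. A ring of 306.1 kb had 13 reads, all in total replicate 2.

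NBAS, a protein of vesicle transport, had 31 long rings but 68 reads, and PTK2 had 20 with 183 reads.

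The messages of the same hosts were compared in the FPKM table. Of 40 hosts, 36 had a protein-coding message at a mean of 1 FPKM or more. As deposited, 32 of these were higher in the cytoplasm than in the nucleus and 1 lower, against 90.1% and 1.26% of 10246 tested mRNAs (limma, adjusted p below 0.05). In this fit the spread came from the trend over all tested mRNAs, not from each message's own replicates. Scaled to the same median, 10 were higher and 15 lower, against 40% and 33.4%. TENM3, a teneurin adhesion protein, was the host lower as deposited, at 1.86 and 1.67 FPKM in the cytoplasmic and 2.19 and 2.60 in the nuclear libraries (log2 difference -0.29), while its ring gave 1.35 and was not called. KCNH8 messages differed by 0.22 and their ring by 2.21, whereas ATRNL1 messages differed by 1.5 and their 51.1 kb ring by 1.24. KCNH8 messages lay at 0.772 and 0.647 FPKM in the cytoplasm and 0.429 and 0.514 in the nucleus, below the pseudocount of 1. With a pseudocount of 0.1 KCNH8 messages differed by 0.50 and ATRNL1 messages by 2.15. The KCNH8 ring had 0 and 2 nuclear reads. Each table was fitted alone, with its own pseudocount, so these values stand side by side only. Over the hosts, the rank correlation of the message's difference with that of its most abundant long ring was 0.09 (n = 36, same 6 libraries).

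The limit of 50 kb was set by the rule, and whether rings on its 2 sides differ in kind was not tested. Just above it lay PAK3 at 50005 bases, with 2 and 5 reads in whole cells and 0 elsewhere, and just below it ASCC3 at 49995 bases, with 2 reads in cytoplasm replicate 1 and 1 in total replicate 1. Among tested rings MBOAT2 at 50022 and PHKB at 50150 bases lay inside, and RHBDD1 at 49748 and RERE at 48897 bases outside. Just under the level filter stood SLC4A7, a bicarbonate transporter, at 73.2 kb with 4 and 0 reads in the cytoplasm, 0 and 3 in the nucleus and 9 and 7 in whole cells.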

How the data were processed

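RNA from whole cells, cytoplasm and nucleus was depleted of ribosomal RNA and made into stranded libraries, per the labels' protocols. Per the submitters' processing notes, the tools included HISAT2 2.1.0 and featureCounts 2.0.1 after trimming with Trimmomatic 0.39, and the build was hg38. No source used here gives the circRNA caller or says whether ring counting used strand. The authors deposited a signal named FPB for each ring and FPKM for each gene, per the file headers. FPB values were whole multiples of 1 read in each library for 100% of values within 0.05 reads, which gave reads per ring. The ring table held 7 blank lines, which were left out.

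Long rings, their reads and shares were counted per library. Rings with a mean of at least 0.37 FPB were compared as log2(FPB + 0.123), and mRNAs with a mean of at least 1 FPKM as log2(FPKM + 1), with limma 3.58.1 in R 4.3.3 (mean-variance trend, all 6 libraries, 3 residual degrees of freedom, Benjamini-Hochberg adjustment over each table). A fold change on this scale understates that of low rings. The prior degrees of freedom of limma were 10.2 for rings and infinite for mRNAs. Each message thus took its spread from the trend over all tested mRNAs, and its own replicate spread did not enter. Alternatives included edgeR 4.0.16 on recovered reads, other filters, pseudocounts, scalings, spans and leaving out each library. Intervals cover counting error only, and 3 reads was taken as the floor that a count of 0 allows. Exons of a ring were taken from the GENCODE v29 transcript holding both ends, keeping every exon between them. Scripts were tested on simulated data. The rule for named rings took the 12 with the highest mean, the 6 largest differences between cytoplasm and nucleus in each direction, rings called lower in the cytoplasm, the 5 longest tested spans, the 2 most abundant of each host list, the 3 hosts with most tested long rings, and rings next to 50 kb. Other rings named, which were those of GLI3, ZEB1, TENM3, DENND1A, AGTPBP1 and SLC4A7, untested rings of ATRNL1 and the longest spans, were chosen after their values were seen. The rings and the host and marker lists were chosen with earlier results of these data known. Some rings that the rule names are not reported here.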

Additional observations from a re-analysis of the deposited data

How the results depend on the processing

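The 12 long rings higher in cytoplasm than nucleus became 7 with a mean of at least 0.74 FPB, 20 above 40 kb, 3 above 100 kb and 0 with no filter (50 at an unadjusted p below 0.05), with mRNA scaling, with one circRNA total and with edgeR's TMM, and 0 to 11 with 1 library left out. The 1 ring lower in cytoplasm than total became 0 with a pseudocount of 0.0616, no filter, mRNA scaling, one circRNA total, no trend, TMM or spans above 100 kb, 2 with a pseudocount of 0.369, only the libraries compared, edgeR on mapped bases or ZNF and lncRNA hosts kept, 3 at 0.74 FPB or above 40 kb, and 0 to 2 with 1 library left out. The 30 rings lower in nucleus than total became 13 at 0.74 FPB, 1 with no filter, 0 with mRNA scaling, one circRNA total or TMM, 47 above 40 kb, 7 above 100 kb, and 15 to 25 with 1 library left out. With a replicate block the 3 counts were 12, 1 and 29, and same-numbered libraries did not deviate together (r of -0.05, -0.04 and 0.08 between preparations).

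The summed log2 ratio of cytoplasm to nucleus was 1.34 for tested rings alone, -0.017 with mRNA scaling and, chosen after seeing the data, 1.17 without STK39 rings. The shares in cytoplasm, nucleus and total were 1.5%, 1.33% and 1.70% for tested rings, 3.65%, 3.78% and 4.32% under the filter, 7.71%, 7.46% and 8.90% above 40 kb, 1.21%, 1.27% and 1.71% above 100 kb, and 7.17%, 7.18% and 8.48% with ZNF and lncRNA hosts. Without the most abundant ring the nucleus had 5.02% and total 5.85%. Long minus other rings, cytoplasm over nucleus, gave 0.18 for tested rings, -0.049 under the filter and -0.064 above 100 kb. With mRNA scaling the medians were 0.16 for long and 0.12 for other tested rings, and host mRNAs gave 10 higher and 15 lower. The cause of these changes was not tested, apart from fewer or more rings tested at other filters and spans. Nuclear libraries had the fewest reads, so nuclear levels are the least precise.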
